A study of Mus musculus with 23 samples.

Results

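The cereblon ubiquitin ligase and the Ikaros family were followed in RNA sequencing of 23 libraries, taken from IL6Myc mouse tumors and from control B cells. The gene set has 9 members chosen by name, which are CRBN, DDB1, CUL4A and CUL4B of the ligase and IKZF1 to IKZF5 of the Ikaros family. The deposited table lists all 9 among its 61651 entries under human gene symbols, and 6 of them are among the 21282 entries that carry values. CUL4B, IKZF2 and IKZF4 were not analysed here. CRBN, DDB1, CUL4A, IKZF1, IKZF3 and IKZF5 each had 1 row, shared no profile with another name, and passed the filter on low values (1 CPM, a count scaled to a common library total with TMM factors, in at least 4 libraries).

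The tumor groups are 7 mesenteric lymph node (MLN) tumors and 7 spleen tumors of untreated IL6Myc mice, labelled as malignant plasma cells. The sources used here give neither the promoters behind the transgenes nor the ages of the mice. The other groups are 5 libraries of activated B cells and 4 of quiescent B cells, all from spleens of WT Balb/c mice. Activated cells received 1 µg/ml LPS, a bacterial product that stimulates B cells, for 16 hours after isolation, so LPS and the time after isolation cannot be told apart. Quiescent cells were untreated. All samples passed a magnetic bead selection that keeps B cells by removing other cells. Both tumors came from 6 mice (1610, 1611 and 1613 to 1616), while mouse 1609 has an MLN tumor alone and mouse 1612 a spleen tumor alone. Whether each control library is a separate animal is not stated, and tests against them may therefore rest on technical spread.

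Cereblon is the substrate receptor of a cullin-RING ligase. DDB1 is the adaptor that ties it to the scaffold CUL4A or CUL4B, and RBX1 recruits the ubiquitin-loaded enzyme. Ikaros (IKZF1) and Aiolos (IKZF3) are zinc finger transcription factors of lymphocytes that act in B cell development and can recruit the NuRD chromatin complex. IKZF5, or Pegasus, is a more distant family member. In human myeloma, lenalidomide and pomalidomide bind cereblon and direct the ligase to Ikaros and Aiolos, after which the levels of IRF4 and MYC fall. Wild-type mouse cereblon does not support this degradation. No drug was given in this study, and RNA levels do not measure the proteins.

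The depth was 14712392 to 21897188 estimated counts in MLN tumors, 13328866 to 20091467 in spleen tumors, 20194017 to 25045814 in activated and 15529618 to 24226060 in quiescent cells. The summed level of 15 plasma cell markers ran from 3065.7 to 58926.7 CPM in MLN tumors and from 2288.0 to 60133.2 CPM in spleen tumors, against 2919.8 to 3069.3 CPM in activated and 3632.1 to 4123.2 CPM in quiescent cells. The MLN tumor of mouse 1611 and the spleen tumors of mice 1610, 1612 and 1615 were below the lowest quiescent library in this sum, which goes against their label as plasma cells. For 2 of them this depends on the measure, since the mean log2(CPM + 1) of the same markers was 6.49 in the MLN tumor of mouse 1611 and 6.50 in the spleen tumor of mouse 1612, and 5.81 and 6.06 in the spleen tumors of mice 1610 and 1615, against 6.18 to 6.31 in quiescent cells. Some results against control cells, those of CRBN, CUL4A, IKZF1, IKZF3 and part of the gene lists, are therefore also given without these 4 libraries. Leaving them out keeps 7 tumor mice and was chosen after their values were seen. Summed levels of 12 mature B cell markers ran from 1169.8 to 10230.5 CPM in MLN tumors and from 295.7 to 12872.8 CPM in spleen tumors, against 10098.4 to 11279.1 CPM in activated and 18113.5 to 19057.7 CPM in quiescent cells. Tested singly, 11 of the 15 plasma cell markers were called higher and 0 lower in tumor mice against quiescent cells, and 14 and 0 against activated cells. All 12 mature B cell markers were called lower against quiescent cells, and 3 higher and 4 lower against activated cells. For other cell types, 9 macrophage markers summed to between 225.7 and 4132.4 CPM in tumor libraries, against at most 2.4 CPM in activated and 246.6 CPM in quiescent cells. Summed levels of 15 T cell markers were 48.5 to 769.2 CPM in tumor libraries, 77.1 to 94.1 CPM in activated cells, in which THEMIS was at 0, and 272.3 to 290.6 CPM in quiescent cells. By gene, 10 of the 15 T cell markers were called higher and 1 lower in tumor mice against quiescent cells, and 13 higher and 0 lower against activated cells. In tumor mice against quiescent cells, all 9 macrophage, all 8 neutrophil and all 8 erythroid markers measured were called higher, as were 6 of 8 NK cell markers, with 1 lower. Over all genes tested, 36.9% were called higher and 31.9% lower in this comparison, and 36.2% and 27.0% against activated cells. A marker under 1 CPM in the control libraries passed the filter on low values only through tumor libraries, which favoured its call. Neutrophil markers summed to 14.1 to 2214.4 CPM in tumor libraries, against at most 10.6 CPM in activated and quiescent libraries, with ELANE at 0 in activated cells. Erythroid markers summed to 14 to 3945.6 CPM in tumor libraries, at most 2.36 CPM in activated and 24.7 CPM in quiescent cells. NK cell markers summed to 7.8 to 63.8 CPM in tumor libraries, 2.29 to 3.51 CPM in activated and 12.4 to 14.1 CPM in quiescent cells. The part of these other cell types in the results below was not tested. In bulk RNA, fewer cells of a type and less RNA per cell cannot be told apart.

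The promoters of 5 members that changed are shown for reference, and that of IKZF3 is not shown. Each is given as the 250 bases before the RefSeq start, 5′ to 3′ on the gene's strand, in build GRCm38.p6, which is not the build of the counts. Capitals mark matches, on either strand, to the GC box GGGCGG or the Ikaros core TGGGAA. The Crbn window is chr6:106800088-106800337 on the minus strand, that of Ddb1 is chr19:10605347-10605596 on the plus strand, that of Cul4a is chr8:13105373-13105622 on the plus strand, that of the first of 2 Ikzf1 starts is chr11:11685675-11685924 on the plus strand, and that of Ikzf5 is chr7:131410479-131410728 on the minus strand.
Crbn: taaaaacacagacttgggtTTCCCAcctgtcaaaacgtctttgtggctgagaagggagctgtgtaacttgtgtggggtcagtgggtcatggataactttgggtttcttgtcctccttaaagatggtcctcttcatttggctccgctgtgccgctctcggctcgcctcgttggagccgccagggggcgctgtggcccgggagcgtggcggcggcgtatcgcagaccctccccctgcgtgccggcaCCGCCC
Ddb1: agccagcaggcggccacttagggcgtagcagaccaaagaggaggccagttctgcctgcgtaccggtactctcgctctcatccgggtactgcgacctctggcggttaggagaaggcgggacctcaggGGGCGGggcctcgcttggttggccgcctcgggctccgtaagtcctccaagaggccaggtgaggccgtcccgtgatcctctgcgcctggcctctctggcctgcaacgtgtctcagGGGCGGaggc
Cul4a: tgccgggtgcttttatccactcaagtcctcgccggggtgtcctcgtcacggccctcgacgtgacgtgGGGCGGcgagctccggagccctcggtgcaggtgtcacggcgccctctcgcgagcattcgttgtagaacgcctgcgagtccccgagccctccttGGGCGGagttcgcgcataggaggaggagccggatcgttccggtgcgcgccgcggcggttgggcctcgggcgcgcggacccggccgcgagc
Ikzf1: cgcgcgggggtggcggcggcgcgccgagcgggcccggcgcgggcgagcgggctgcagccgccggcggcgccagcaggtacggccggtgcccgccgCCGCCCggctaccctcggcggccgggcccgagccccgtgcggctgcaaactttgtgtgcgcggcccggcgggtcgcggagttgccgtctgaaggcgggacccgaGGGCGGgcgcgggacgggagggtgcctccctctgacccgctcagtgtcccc
Ikzf5: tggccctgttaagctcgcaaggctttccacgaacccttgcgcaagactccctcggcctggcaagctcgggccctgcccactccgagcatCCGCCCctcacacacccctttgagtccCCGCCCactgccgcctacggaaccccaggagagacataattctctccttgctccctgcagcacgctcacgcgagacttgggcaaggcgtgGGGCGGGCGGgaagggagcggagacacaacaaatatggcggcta
The table of 32851 promoters held 7 entries of 6 members, and 5 motifs were searched on both strands. The Crbn window held 1 TGGGAA match, 231 to 226 bases before the start, and this motif occurred in 21.6% of all promoters. The GC box, in 32.7% of all promoters, matched at least once in the Crbn, Ddb1, Cul4a, Ikzf5 and first Ikzf1 windows, with 4 matches in Ikzf5, of which the last 2 overlap. The E-box CACGTG (6.0% of all promoters) and the ETS core CCGGAAG (6.9%) matched in none of the 7 windows, and CCAAT (33.8%) matched in Cul4b. These matches describe letters in these windows only.

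Tumors had less RNA of CRBN, IKZF1, IKZF3 and IKZF5 than quiescent B cells, and slightly more of CUL4A. For comparisons with control cells, the counts of the 2 tumors of a mouse were summed, which gave 8 tumor mice. Of the 6 members, 5 passed the test against quiescent cells (edgeR's quasi-likelihood test, adjusted p under 0.05), 1 higher and 4 lower. Over all 11637 genes tested, 68.7% passed, 36.9% higher and 31.9% lower, so a high share of calls is general to this comparison. Against activated cells, 2 members passed, both lower, where 63.2% of all genes did, 36.2% higher and 27.0% lower. Activated against quiescent cells gave 4 calls, 1 higher and 3 lower, where 59.5% of all genes were called, 25.5% higher and 34.1% lower. The 3 comparisons share samples, so their values are given side by side.

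**Figure D1:**
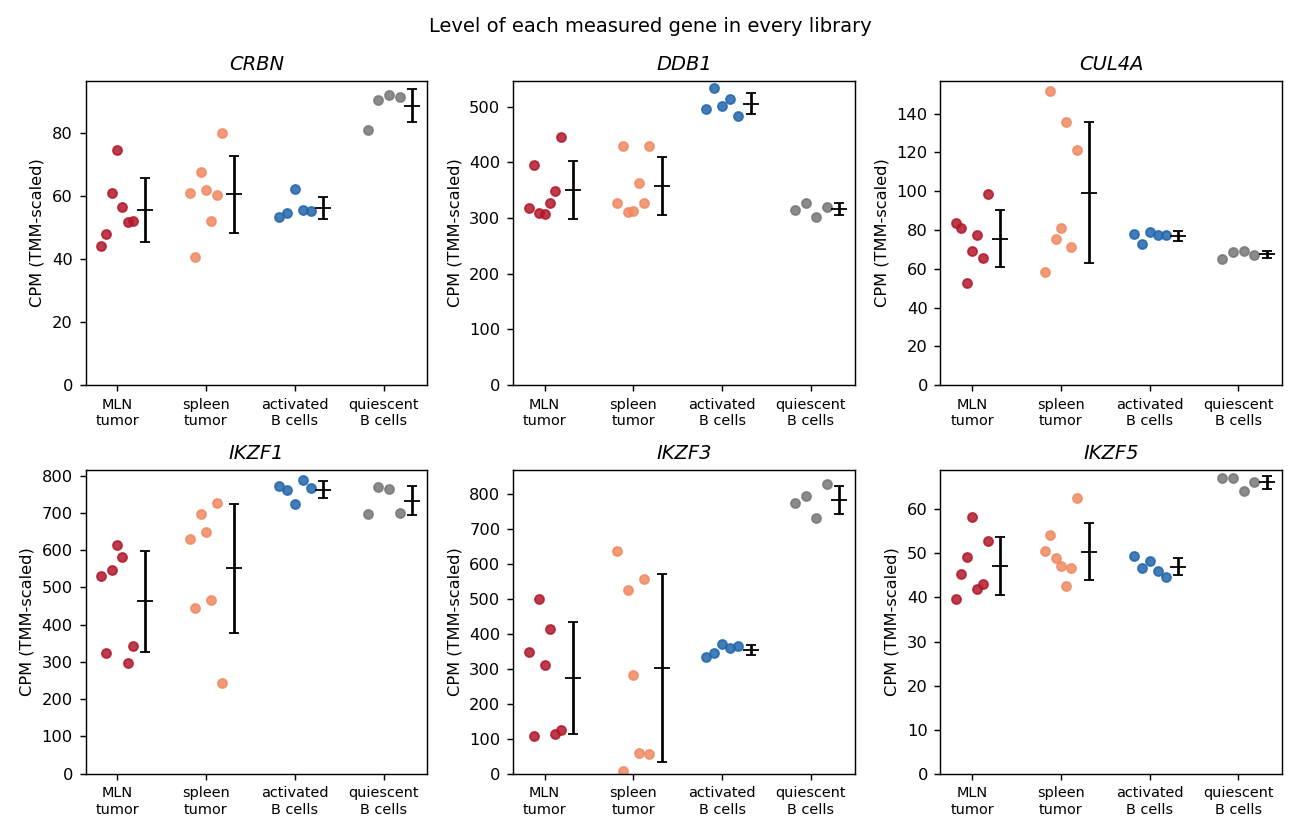
CPM of the 6 measured members in every library (points), for MLN tumors, spleen tumors, activated and quiescent B cells, with the mean and SD of each group in black. CRBN, IKZF3 and IKZF5 are highest in quiescent cells, DDB1 in activated cells, and IKZF3 in spleen tumors runs from 6.51 to 638.6 CPM.

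CRBN, the substrate receptor, was lower in both tumors and activated cells than in quiescent cells. Its level was 44.3, 52.1 and 74.9 CPM (lowest, median, highest) in MLN tumors and 40.8, 61.2 and 80.1 CPM in spleen tumors. It was 53.5, 54.7, 62.4, 55.7 and 55.3 CPM in activated and 81.1, 90.5, 92.1 and 91.6 CPM in quiescent libraries. All 8 tumor mice, at 45.2 to 70.4 CPM, and all 5 activated libraries were below every quiescent library, while tumor mice and activated libraries overlapped. Groups that do not overlap were found for 47.6% of all genes between tumor mice and quiescent cells, for 39.9% between tumor mice and activated cells, and for 67.9% between activated and quiescent cells. The log2 change was -0.65 ± 0.10 (SE) in tumor mice against quiescent cells (edgeR adjusted p = 5.01e-05) and -0.72 ± 0.11 in activated against quiescent cells (adjusted p = 3.9e-05). Against activated cells it was 0.08 ± 0.10 in tumor mice (adjusted p = 0.505), and its sign turned in some settings. Without the 4 libraries low in plasma cell markers, the log2 change against quiescent cells was -0.74.

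DDB1, the adaptor shared by the CUL4 ligases, followed another order. It was 306.4, 327.1 and 445.2 CPM (lowest, median, highest) in MLN tumors and 310.5, 327.6 and 430.0 CPM in spleen tumors. Activated libraries had 494.8, 534.1, 501.8, 513.1 and 483.1 CPM, and quiescent libraries 314.2, 326.1, 301.1 and 320.2 CPM. All 8 tumor mice were below all 5 activated libraries, which in turn were above all 4 quiescent libraries, and tumor mice overlapped quiescent cells. DDB1 fell by 0.51 on the log2 scale in tumor mice against activated cells (SE 0.08, edgeR adjusted p = 5.29e-05). It rose by 0.62 ± 0.10 (SE) in activated against quiescent cells (edgeR adjusted p = 5.02e-05). Tumor mice differed from quiescent cells by 0.11 ± 0.09 (SE), an edgeR adjusted p of 0.294, but upper-quartile scaling (0.25) and quantile normalization (0.41) each gave a call.

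CUL4A, the cullin scaffold, varied more among spleen tumors than within the other groups (coefficient of variation 36.7% in spleen tumors, 19.5% in MLN tumors, 3.2% in activated and 2.7% in quiescent cells). It was 52.8, 77.6 and 98.8 CPM (lowest, median, highest) in MLN tumors and 58.3, 81.0 and 151.9 CPM in spleen tumors. Activated libraries had 78.1, 72.8, 79.2, 77.4 and 77.4 CPM, and quiescent libraries 65.2, 68.7, 69.1 and 66.9 CPM. Of the 8 tumor mice, 6 were above all quiescent libraries and 1 was below them. The rise of 0.31 ± 0.13 (SE, log2) in tumor mice against quiescent cells had an edgeR adjusted p of 0.0451. It was called in 4 of 12 fits that each left out 1 mouse or quiescent library, and the adjusted p ran from 0.0174 to 0.0984 over them. The call was lost without mouse 1609, 1611, 1614 or 1616, and without any 1 of the quiescent libraries. It was also lost with limma (0.28, adjusted p = 0.0596), with the 14 tumor libraries taken as independent (0.37, adjusted p = 0.125) and with MLN tumors alone (0.16, adjusted p = 0.26), while spleen tumors alone gave 0.56 (adjusted p = 0.0456). The change was 0.53 (adjusted p = 0.0161) without the 4 libraries low in plasma cell markers. Against activated cells the tumor mice gave 0.19 ± 0.12 (edgeR adjusted p = 0.191), and activated against quiescent cells gave 0.13 ± 0.14 (adjusted p = 0.467). The spread behind this last SE is shared with the tumor mice. All activated libraries were above every quiescent library, where 67.9% of all genes did not overlap. A fit of control libraries alone, with replicate number as a block, gave 0.22 (edgeR adjusted p = 0.00493).

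**Figure D2:**
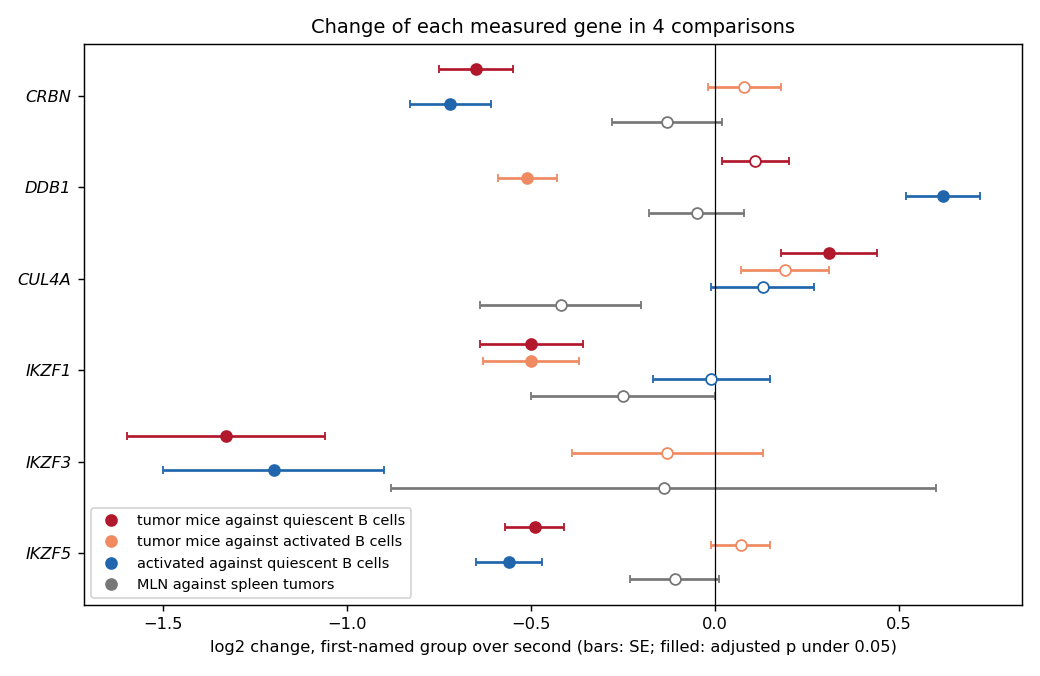
Log2 change with its SE (bars) of each measured member in 4 comparisons, filled where the edgeR adjusted p is under 0.05. CRBN, IKZF3 and IKZF5 are lower in tumor mice and in activated cells than in quiescent cells, and no MLN against spleen value is filled.

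IKZF1, which encodes Ikaros, was lower in tumors than in either control group. It was 531.5, 324.5, 547.6, 614.8, 582.5, 298.3 and 343.5 CPM in the MLN tumors of mice 1609, 1610, 1611 and 1613 to 1616. The spleen tumors of mice 1610 to 1616 had 629.2, 444.2, 698.2, 649.3, 466.0, 725.6 and 243.4 CPM. Activated libraries had 772.6, 761.1, 725.0, 788.5 and 765.6 CPM, and quiescent libraries 697.4, 768.2, 763.0 and 699.5 CPM. After the tumors of a mouse were summed, 7 of 8 mice were below every library of both control groups, and mouse 1612, at 727.0 CPM, was within their ranges. The log2 change in tumor mice was -0.50 ± 0.14 (SE) against quiescent cells (edgeR adjusted p = 0.00532) and -0.50 ± 0.13 against activated cells (adjusted p = 0.00392). Without the 4 libraries low in plasma cell markers the values were -0.75 (adjusted p = 0.00143) and -0.79. Both calls were lost with spleen tumors alone and with quantile normalization. Activated and quiescent cells differed by -0.01 ± 0.16 (edgeR adjusted p = 0.979), and this value changes sign with the scaling.

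IKZF3, which encodes Aiolos, had the widest range of the 6 members. It was 349.3, 107.3, 499.0, 310.4, 413.2, 114.6 and 125.4 CPM in the MLN tumors of mice 1609, 1610, 1611 and 1613 to 1616. The spleen tumors of mice 1610 to 1616 had 638.6, 6.51, 524.5, 282.5, 57.9, 556.8 and 56.2 CPM. The spleen values spanned a 98.1-fold range, against 4.65-fold in MLN tumors. Activated libraries had 335.0, 345.0, 370.5, 360.0 and 364.7 CPM, and quiescent libraries 773.8, 795.1, 732.3 and 828.8 CPM. All tumor mice (100.3 to 546.1 CPM) and all activated libraries were below every quiescent library, and tumor mice lay on both sides of the activated range. IKZF3 changed by -1.33 ± 0.27 (SE, log2) in tumor mice against quiescent cells (edgeR adjusted p = 0.000457) and by -1.20 ± 0.30 in activated against quiescent cells (adjusted p = 0.00275). Against activated cells the tumor value was -0.13 ± 0.26 (edgeR adjusted p = 0.687). Without the 4 libraries low in plasma cell markers, it was -2.23 against quiescent cells (adjusted p = 0.00253) and -1.07 against activated cells (adjusted p = 0.0892). The call against quiescent cells was lost with spleen tumors alone (-1.37, edgeR adjusted p = 0.125).

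IKZF5, which encodes Pegasus, varied little within groups. It was 39.7, 45.4 and 58.3 CPM (lowest, median, highest) in MLN tumors and 42.6, 49.0 and 62.6 CPM in spleen tumors. Activated libraries had 49.4, 46.6, 48.3, 45.9 and 44.6 CPM, and quiescent libraries 67.2, 67.1, 64.1 and 66.2 CPM. All tumor mice and all activated libraries were below every quiescent library. The log2 change was -0.49 ± 0.08 (SE) in tumor mice against quiescent cells (edgeR adjusted p = 0.000132) and -0.56 ± 0.09 in activated against quiescent cells (adjusted p = 8.54e-05). Tumor mice against activated cells gave 0.07 ± 0.08 (adjusted p = 0.455).

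IKZF3 followed the mature B cell markers among tumors. The 3 spleen tumors with the lowest IKZF3, of mice 1611, 1616 and 1614, were also the 3 with the lowest summed mature B cell markers, at 295.7, 784.3 and 1162.5 CPM. The other 4 spleen tumors had 7156.9 to 12872.8 CPM of these markers. The spleen tumors of mice 1611 and 1614 also had the highest summed erythroid (3945.6 and 2330.5 CPM) and neutrophil markers (2214.4 and 1403.8 CPM) of all tumor libraries, while that of mouse 1616 had 136.5 and 295.6 CPM of them. The 3 MLN tumors with the lowest IKZF3, of mice 1610, 1615 and 1616, had 2012.9, 1169.8 and 2487.4 CPM, and the other 4 had 6688.6 to 10230.5 CPM. Since the libraries of each tissue fall into separate runs of marker levels, no pooled correlation with these markers is given within a tissue. Over the 8 tumor mice, log2 IKZF3 and the mean log2 level of the markers had Pearson's r = 0.99 (exact permutation p = 0.000198, two-sided; adjusted p = 0.0107 over 54 relations computed) and Spearman's rho = 0.88 (exact permutation p = 0.00724, adjusted p = 0.0782). Without the 2 mice farthest from the median marker level, r was 0.93. These marker relations were added after the values were seen, and both measures come from the same libraries.

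No relation of another member over the 8 mice passed the adjustment. With the mature B cell markers r was 0.87 for IKZF1 (exact permutation p = 0.0117, adjusted p = 0.0594; rho = 0.60, p = 0.132) and -0.78 for CUL4A (exact permutation p = 0.0143, adjusted p = 0.0643; rho = -0.69, p = 0.0694). Without the 2 farthest mice these were 0.64 and -0.27. In the spleen tumors lowest in these markers, of mice 1611, 1616 and 1614, CUL4A was 151.9, 121.2 and 135.5 CPM. Other spleen tumors had 58.3 to 81.0 CPM of it. In the MLN tumors lowest in these markers, of mice 1610, 1615 and 1616, CUL4A was 80.9, 65.7 and 98.8 CPM. Other MLN tumors had 52.8 to 83.7 CPM. DDB1 had r = -0.85 with the mature B cell markers (exact permutation p = 0.0224, adjusted p = 0.0756; rho = -0.74, p = 0.0458) and 0.82 with the plasma cell markers (exact permutation p = 0.031, adjusted p = 0.0982; rho = 0.52, p = 0.197), and -0.21 and 0.15 without the 2 farthest mice. With the plasma cell markers r was -0.91 for IKZF1 (exact permutation p = 0.00947, adjusted p = 0.0594; rho = -0.76, p = 0.0368) and -0.85 for IKZF3 (exact permutation p = 0.0158, adjusted p = 0.0655; rho = -0.55, p = 0.171). Without the 2 farthest mice they were -0.01 and 0.17, so over the summed mice both rest on those mice. Within tissues, in relations added later, those with the plasma cell markers were negative for IKZF3 and IKZF1 and positive for DDB1 and IKZF5. Each kept its sign without the 2 farthest libraries. IKZF5 had r = 0.27 in MLN and 0.65 in spleen tumors. CUL4A had 0.71 and 0.80, but -0.2 in MLN tumors without the 2 farthest libraries. CRBN had -0.19 and 0.05. For IKZF3, r was -0.85 in the 7 MLN tumors (exact permutation p = 0.0121, adjusted p = 0.0594; rho = -0.86, p = 0.0238) and -0.77 in the 7 spleen tumors (exact permutation p = 0.0365, adjusted p = 0.104; rho = -0.93, p = 0.00675), and -0.79 and -0.89 without the 2 farthest libraries. For IKZF1, r was -0.67 in MLN tumors (exact permutation p = 0.122, adjusted p = 0.286; rho = -0.54, p = 0.236) and -0.90 in spleen tumors (exact permutation p = 0.00734, adjusted p = 0.0594; rho = -0.71, p = 0.0881), and -0.64 and -0.85 without the 2 farthest libraries. For DDB1, r was 0.86 in MLN tumors (exact permutation p = 0.0115, adjusted p = 0.0594, rho = 0.79, p = 0.048). In spleen tumors it was 0.83 (exact permutation p = 0.0218, adjusted p = 0.0756, rho = 0.57, p = 0.2). Without the 2 farthest libraries the DDB1 values were 0.80 and 0.76. None of these within-tissue relations with plasma cell markers passed the adjustment.

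**Figure D3:**
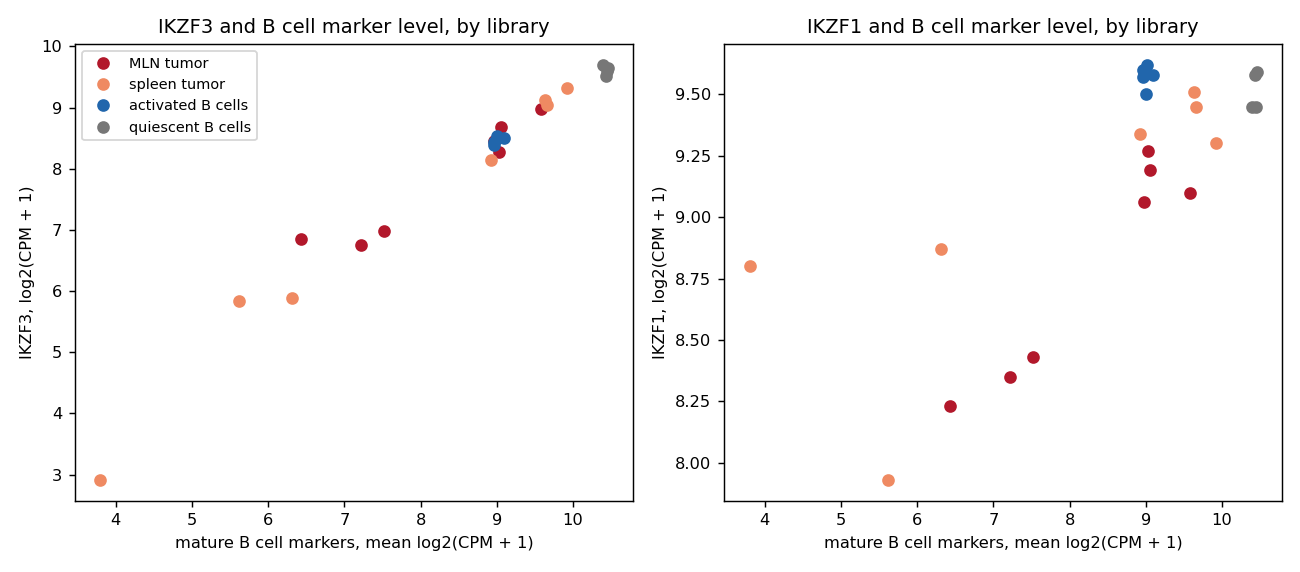
IKZF3 (left) and IKZF1 (right) as log2(CPM + 1) against the mean log2(CPM + 1) of 12 mature B cell markers, 1 point per library, by group. The spleen tumor of mouse 1611 is lowest in both IKZF3 (6.51 CPM) and the markers (summed 295.7 CPM), and quiescent libraries are at the upper right.

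Tumors of the same mouse differed widely in IKZF3, in both directions. In mouse 1611 IKZF3 was 499.0 CPM in the MLN tumor and 6.51 CPM in the spleen tumor, a 76.7-fold difference, and in mouse 1614 it was 413.2 and 57.9 CPM in the MLN and spleen tumors. In mouse 1610 the MLN tumor had 107.3 CPM and the spleen tumor 638.6 CPM, and in mouse 1615 the MLN tumor had 114.6 CPM and the spleen tumor 556.8 CPM. The MLN tumor was the higher in 4 of the 6 mice for IKZF3, in 3 of 6 for CRBN, DDB1 and IKZF1, and in 1 of 6 for CUL4A and IKZF5. Log2 differences of MLN over spleen ran from -2.57 to 6.26 for IKZF3, from -1.28 to 0.50 for IKZF1 and from -1.52 to 0.47 for CUL4A. For CRBN, DDB1 and IKZF5 they all lay between -0.62 and 0.59. No member passed the test of 7 MLN against 7 spleen tumors, where 0% of all genes passed (edgeR; 511 of 11637 at an unadjusted p under 0.05, and 20 genes called by DESeq2). The lowest unadjusted edgeR p among the members was 0.0833, for CUL4A (-0.42 ± 0.22, log2), and 0 members were under 0.05. The mouse as a block changed none of these calls.

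**Figure D4:**
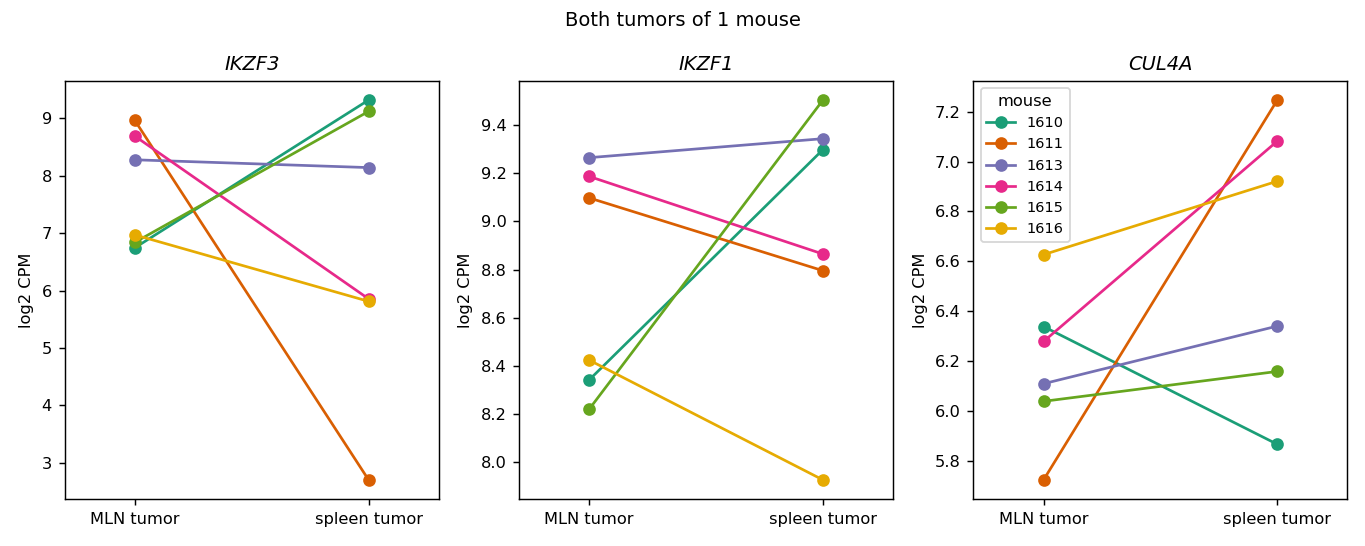
Log2 CPM of IKZF3, IKZF1 and CUL4A in the MLN and the spleen tumor of the 6 mice that gave both, with a line for each mouse. The IKZF3 lines cross, with mouse 1611 at 499.0 CPM in the MLN tumor and 6.51 CPM in the spleen tumor.

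The genes with the nearest pattern over the 23 libraries were found by the smallest root mean square difference of centred log2(CPM + 1) among 11636 other genes. For IKZF3 they were BANK1 (0.264), an adaptor of B cell receptor signalling and 1 of the 12 mature B cell markers, MYO1E (0.364), a myosin, and BIN1 (0.373), a membrane-shaping protein. The median of all genes was 1.632, and IKZF3 itself had a root mean square of 1.563 about its mean. For CRBN they were TAX1BP1 (0.128), an autophagy receptor, SF3B1 (0.135) and SYF2 (0.137), both of the splicing machinery, against a median of 0.597. For IKZF1 they were CPSF6 (0.159), a factor of mRNA 3′ end processing, SENP1 (0.164), a SUMO protease, and STRADA (0.164), a partner of the kinase LKB1, against a median of 0.677. These are descriptions of likeness in level across libraries.

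Of 17 CRL4 partners and E2 enzymes, which assemble, activate or recycle the CUL4 ligases, 0 were called higher and 11 lower in tumor mice against activated cells (median log2 change -0.33, against 0.09 over all genes). The other 6 were not called, and upper-quartile scaling gave 1 higher and 8 lower. Over all genes 36.2% were higher and 27.0% lower here, and 36.9% and 31.9% against quiescent cells. In activated against quiescent cells these shares were 25.5% and 34.1%. RBX1, the RING subunit, averaged 62.6 ± 4.96 CPM in tumor mice (SD, n = 8), 96.6 ± 4.15 in activated (n = 5) and 57.1 ± 2.59 in quiescent cells (n = 4). It fell by 0.62 on the log2 scale in tumors against activated cells (edgeR adjusted p = 3.51e-07), and against quiescent cells it was 0.13 ± 0.07 (adjusted p = 0.0845). CAND1, the cullin exchange factor, and its relative CAND2 changed by -0.74 and -1.33 against activated cells. Against quiescent cells, 1 partner was higher and 8 lower (median -0.19, against 0.08), but upper-quartile scaling gave 5 higher and 4 lower, and median-ratio scaling 4 and 5. NEDD8, the ubiquitin-like activator of cullins, rose by 0.39, while NAE1, a subunit of the enzyme that activates NEDD8, and GLMN, an inhibitor of RBX1, changed by -0.86 and -0.80. Activated against quiescent cells had 8 partners higher and 3 lower (median 0.11, against -0.15), with RBX1 up by 0.76, CAND1 by 0.55, and UBE2R2, a ubiquitin-conjugating enzyme, and NAE1 at -0.49 and -0.48.

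The COP9 signalosome, which removes NEDD8 from cullins, was highest in activated cells. Of its 9 subunits, 8 were higher and 0 lower in activated against quiescent cells (median log2 change 0.69), with COPS2 up by 0.95 and COPS3 by 0.88. In tumor mice 0 were higher and 5 lower against activated cells (median -0.23), with COPS2 at -0.59 and COPS3 at -0.48, and 3 lower with upper-quartile scaling or without the 4 libraries low in plasma cell markers. Against quiescent cells 6 were higher and 0 lower in tumor mice (median 0.36). The largest rises were of COPS5, the catalytic subunit, at 0.58 ± 0.13 (SE, edgeR adjusted p = 0.00114), and COPS7A at 0.41 ± 0.12 (adjusted p = 0.00788). The medians over all genes were -0.15 in activated against quiescent cells, 0.09 in tumor mice against activated and 0.08 against quiescent cells. Of all genes, 25.5% were higher and 34.1% lower, 36.2% and 27.0%, and 36.9% and 31.9% in that order.

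**Figure D5:**
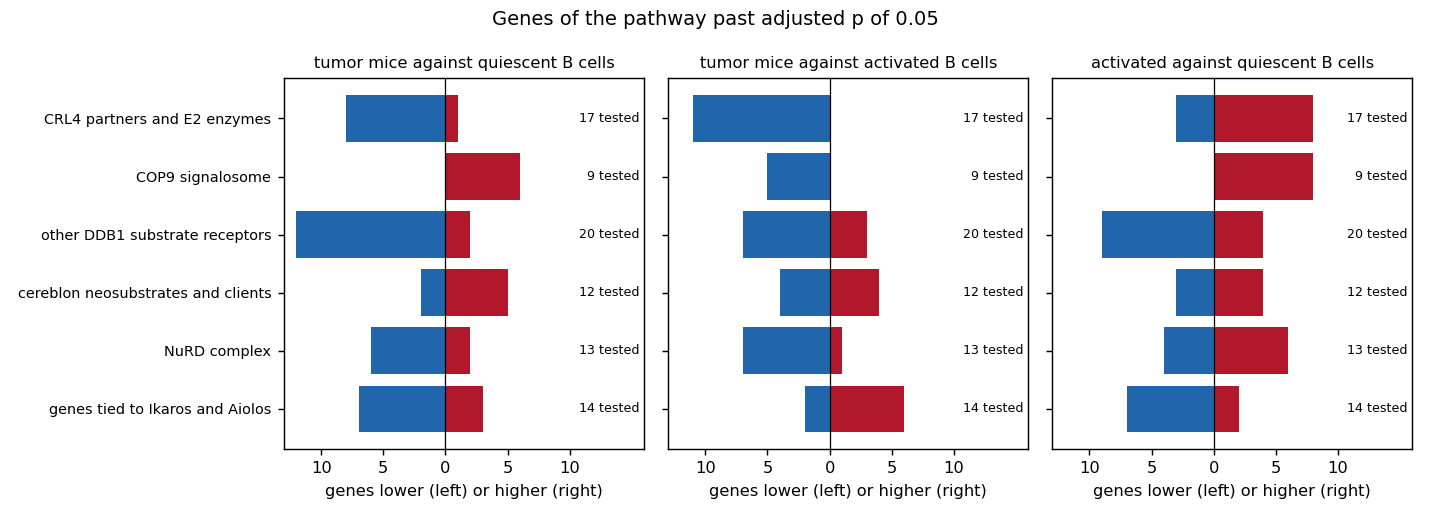
Number of genes of each list that were lower or higher by edgeR (adjusted p under 0.05) in tumor mice against quiescent cells, tumor mice against activated cells and activated against quiescent cells. The COP9 signalosome has 6 higher and 0 lower, 0 higher and 5 lower, and 8 higher and 0 lower in these comparisons.

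Other receptors that use DDB1 did not move as 1 group. Of 20 tested among 21, 2 were higher and 12 lower in tumor mice against quiescent cells (median log2 change -0.29; 3 and 8 with upper-quartile scaling), 3 higher and 7 lower against activated cells (-0.06), and 4 higher and 9 lower in activated against quiescent cells (-0.27). DTL, the receptor for proteins destroyed during DNA replication, averaged 48.5 ± 13.8 CPM in tumor mice (SD, n = 8), 87.8 ± 8.93 in activated (n = 5) and 3.38 ± 0.251 in quiescent cells (n = 4). Its log2 change was 3.84 ± 0.23 (SE) in tumors against quiescent cells (edgeR adjusted p = 2.16e-08), -0.86 ± 0.17 against activated cells (adjusted p = 0.000341) and 4.70 ± 0.25 in activated against quiescent cells (adjusted p = 6.01e-10). BRWD1, a bromodomain protein of B cell development, averaged 215.8 ± 60.3 CPM in tumor mice (SD, n = 8), 104.0 ± 13 in activated and 587.8 ± 42.4 in quiescent cells. Its log2 changes were -1.45 in tumors against quiescent cells, 1.05 in tumors against activated cells and -2.50 in activated against quiescent cells. PHIP, a related bromodomain protein, changed by -1.02, -1.72 and 0.70 in the same comparisons. DCAF12 rose by 1.13 in tumors against activated cells and fell by 1.09 in activated against quiescent cells, and DCAF13 rose by 0.18 in tumors against quiescent cells. Beside the receptors, all genes had medians of 0.08 and 0.09 in tumor mice against quiescent and activated cells, and -0.15 in activated against quiescent cells. Their shares called were 36.9% higher and 31.9% lower, 36.2% and 27.0%, and 25.5% and 34.1%.

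Proteins that cereblon binds, with or without drugs, were measured by 12 of 14 listed genes. In tumor mice 5 were higher and 2 lower against quiescent cells (median log2 change 0.33; 5 and 4 without the 4 libraries low in plasma cell markers) and 4 higher and 4 lower against activated cells (0.10; 6 and 3 without those libraries), and activated against quiescent cells gave 4 and 3 (-0.01). GSPT1, a translation termination factor, rose by 0.58 ± 0.16 (SE) in tumors against quiescent cells and fell by 0.42 against activated cells. CSNK1A1, the casein kinase that lenalidomide targets in human cells, was -0.11 ± 0.06 against quiescent cells (edgeR adjusted p = 0.149) and fell by 0.66 against activated cells. ZFP91, a zinc finger protein, fell by 0.42 against quiescent and by 0.25 against activated cells. SLC16A1, a lactate transporter that uses BSG as its chaperone, rose by 2.90 ± 0.27 in tumors against quiescent cells, with 61.2 ± 21.8 CPM in tumor mice, 80.3 ± 8.05 in activated and 8.21 ± 1.52 in quiescent cells (SD, n = 8, 5 and 4). GLUL, or glutamine synthetase, rose by 1.13 in tumors against activated cells, PRKAA1, a subunit of the kinase AMPK, was lower in tumors than in quiescent (-0.29) and activated cells (-0.44), and RNF166 and ZNF692 were lower in activated than in quiescent cells (-0.71 and -0.50). ZBTB16, which encodes PLZF, averaged 2.98 ± 3.77 CPM in tumor mice and 0.155 CPM in quiescent cells, and no count was found in the 5 activated libraries. ZBTB16 and CLCN1, a chloride channel (1.12 CPM in tumor mice, 0.551 CPM in activated and 0.212 CPM in quiescent cells), passed the filter on low values through tumor libraries, so their calls, both among the 5 higher against quiescent cells and that of ZBTB16 among the 4 higher against activated cells, were favoured by the filter. CLCN1 was named after its values were seen. Beside this list, all genes had medians of 0.08 and 0.09 in tumor mice against quiescent and activated cells, and -0.15 in activated against quiescent cells. Their shares called were 36.9% higher and 31.9% lower, 36.2% and 27.0%, and 25.5% and 34.1%.

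NuRD genes changed in both directions. In tumor mice 2 of 13 were higher and 6 lower against quiescent cells (median log2 change -0.19), with 5 higher and 3 lower under quantile normalization, and 1 was higher and 7 lower against activated cells (-0.21). Activated against quiescent cells had 6 higher and 4 lower (-0.11). Over all genes the medians were 0.08, 0.09 and -0.15 in these comparisons. The shares of all genes called were 36.9% higher and 31.9% lower, 36.2% and 27.0%, and 25.5% and 34.1%. NuRD was not tested against those shares. CHD3 and GATAD2B changed by -1.13 and -0.67 in tumors against quiescent cells, while MTA1 and RBBP7 changed by 0.59 and 0.41. RBBP7, a histone-binding subunit, was lower in tumors than in activated cells (-1.01), as was RBBP4 (-0.51), and MBD2, which binds methylated DNA, was higher (0.90).

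Genes that Ikaros and Aiolos are known to control, or that act beside them, were measured by 14 of 17. In tumor mice 3 were higher and 7 lower against quiescent cells (median log2 change -0.81, against 0.08 over all genes). Against activated cells 6 were higher and 2 lower (0.60, against 0.09). The list median there was 0.31 with DESeq2, 0.23 with quantile normalization and 0.18 with limma, which called 5 and 3. Activated against quiescent cells gave 2 and 7 (-0.89, against -0.15). Of all genes, 36.9% were higher and 31.9% lower, 36.2% and 27.0%, and 25.5% and 34.1% in these comparisons. The list was not tested against those shares. MYC, named in the model's genotype, averaged 795.3 ± 435.0 CPM in tumor mice (SD, n = 8), 219.8 ± 7.14 in activated (n = 5) and 72.6 ± 6.79 in quiescent cells (n = 4), and its counts cannot be split between transgene and endogenous gene here. IRF4, a plasma cell transcription factor, averaged 393.5 ± 305.9 CPM in tumor mice, 194.5 ± 15.4 in activated and 253.8 ± 21.0 in quiescent cells, with log2 changes of 0.63 ± 0.39 (SE; edgeR adjusted p = 0.153) against quiescent and 1.02 ± 0.36 (adjusted p = 0.0216) against activated cells. CDKN1A, a cell cycle inhibitor, rose by 4.15 ± 0.54 against quiescent and by 1.34 ± 0.41 against activated cells. The B cell factors EBF1 and SPIB changed by -1.5 and -1.47 against quiescent cells, and PAX5 and CD79B changed by -1.39 and -0.87 against activated cells. PAX5 and CD79B are also mature B cell markers, and IRF4 is also a plasma cell marker. RAG1, a recombinase of early B cell development, was low in all groups, at 0.486 CPM in tumor mice, 0.00765 CPM in activated and 0.745 CPM in quiescent cells. It is 1 of the 6 genes called higher in tumors against activated cells and 1 of the 7 called lower in activated against quiescent cells. RAG1 passed the filter on low values through tumor or quiescent libraries, so both calls were favoured by the filter. No fold is given because the activated libraries were at or near 0.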

How the data were processed

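RNA of 23 libraries was sequenced as stranded total RNA, per the labels' protocols. The values deposited by the authors are estimated counts, set from the values, since the table is named as TPM: among genes with 1 transcript the lowest value above 0 was near 1 at every transcript length, and totals differ between libraries. Reads were trimmed with Trim Galore 0.4.0 and DESeq2 was used, on build GRCm39, per the submitters' processing notes; the sources used here name no quantifier and no step for the human names. Identical entries were merged into 15881 profiles.

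Counts were rounded and tested with edgeR 4.0.16 (quasi-likelihood, TMM, two-sided) in R 4.3.3, with Benjamini-Hochberg adjustment over 11637 genes at 1 CPM or more in at least 4 libraries. The script was tested on simulated data. The SE is approximate, the size of the log2 change over the root of its F. One fit held 8 tumor mice, 5 activated and 4 quiescent libraries, so the SE of activated against quiescent cells also reflects tumor spread. CPM of this fit differ slightly from those of single libraries, which were scaled over all 23. CPM compare a gene between libraries, not genes with each other. The labels give no batch. Levels in relations and in patterns used a pseudocount of 1. Equal mouse numbers mark tumors of the same mouse, per the series' design text, and their deviations from tissue means correlated at -0.2, -0.36, 0.41, -0.29, -0.49 and 0.72. Alternatives used limma 3.58.1, DESeq2 1.42.0, other scalings, no filter, single tissues and left-out libraries. Named are all members, of each list up to 2 rises and 2 falls with the largest change in each comparison with control cells, 7 fixed genes, and the 3 nearest patterns. Members and lists were chosen with earlier results of these data known.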

Additional observations from a re-analysis of the deposited data

Results flagged for a closer look

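CRBN was examined with the other members for single libraries far from the rest of their group, in 24 groups, and 2 libraries stood apart. The third activated library had 62.4 CPM of CRBN, against 53.5 to 55.7 CPM in the other activated libraries. The first quiescent library had 81.1 CPM, against 90.5 to 92.1 CPM in the other quiescent libraries. Chance marks about 1 in 20 groups in this way.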

How the results depend on the processing

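Of the counts of members called, 79 stayed within 1.5 times and 3 moved: with spleen tumors alone the call count fell to 3 against quiescent cells and to 1 against activated cells, and quantile normalization gave 1 against activated cells; the cause was not tested. Of single values, 453 kept direction and call, 24 reversed, 16 lost and 3 gained a call, and 8 values with no test moved. Every reversed value belonged to a difference or relation without a call. Tumor mice against activated cells gave -0.02 (CRBN) and -0.03 (CUL4A) with MLN tumors alone, and -0.06 for CRBN without the libraries low in plasma cell markers. Leaving out 1 library or mouse gave -0.05 to 0.12 for CRBN and -0.07 to 0.12 for IKZF5, each below 0 without mouse 1616. IKZF1 in activated against quiescent cells was 0.05 with median-ratio or upper-quartile factors, DESeq2 or no filter, and -0.03 to 0.02 without single libraries. IKZF3 in MLN against spleen tumors was 0.67 (limma), 0.71 (quantile), 0.68 (mouse as replicate block), 1.26 (plasma marker setting) and -0.56 to 0.31 without single mice, and DDB1 was -0.09 to 0.05. Without the 2 farthest mice, r with plasma cell markers was -0.38 for CUL4A and 0.17 for IKZF3. The mouse block gave 0 calls, as did the fit without it. Replicate numbers of control libraries did not pair them (r -0.02 to 0). A fit with these numbers as a block held no tumor mice and only control libraries whose number occurs in both groups. It called 8426 genes in activated against quiescent cells, against 6925 in the main fit, added the CUL4A call (0.22) and gave 0.09 for IKZF1. The part of the block and that of the left-out samples in these changes were not told apart. Upper-quartile factors gave 4967 genes higher and 2810 lower in tumor mice against quiescent cells, against 4289 and 3709 with TMM, and a median of 0.219 against 0.076. Quantile normalization gave 2815 and 4302 there (median -0.108), and 2529 and 4135 against activated cells, where TMM gave 4214 and 3143. ZBTB16 and RAG1 were at or near 0 counts in activated cells, which limits the size of any change against those cells.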

Other observations

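The balance of Aiolos and Ikaros RNA leaned more to Aiolos in quiescent cells than in activated cells and all but 1 tumor library. Both tumor groups spanned the activated range. The log2 IKZF3 minus log2 IKZF1 difference in a library was -1.59 to -0.13 in MLN tumors (median -0.98), -5.89 to 0.02 in spleen tumors (median -1.20), -1.20 to -0.97 in activated cells and -0.06 to 0.24 in quiescent cells. The spleen tumor of mouse 1610, at 0.02, was the only tumor library inside the quiescent range. It was also 1 of the 4 libraries low in plasma cell markers. The difference is a level of one gene relative to another in counts not scaled by length, so it compares libraries only and carries no test here.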
